A study of Mus musculus with 4 samples.

Results

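The genes described here encode Ras-family GTPases, the proteins that switch them on and off, the MAP kinases below them and the ETS transcription factors and targets at the end of the pathway. They are 42 genes named in a list drawn up with earlier results of these data known, with no measured value in its rule, and all 42 have a row among the 52125 rows of the deposited table. They fall into 10 GTPases, 12 exchange factors and adaptors, 7 GTPase-activating proteins (GAPs), 8 kinases and scaffolds, and 5 ETS factors and targets. Of the 42, 41 passed the filter on low counts that left 18285 genes to test, and the exception was the GAP gene Rasal1.

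RNA came from the stomach corpus, the region that holds the acid glands, of wild-type C57BL/6 mice aged 6 to 8 weeks. One group is labelled HDT at 48 hr and received 5 mg of HDT per 20 g of body weight in 1 intraperitoneal injection, given to damage the stomach. The other is labelled vehicle at 48 hr, although the protocol text speaks of untreated animals. Each group has 2 libraries, and each library came from 1 mouse. The labels do not spell HDT out; in work on gastric injury it commonly stands for high-dose tamoxifen.

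Ras proteins are membrane-bound switches that are active when they hold GTP and inactive when they hold GDP. Receptor tyrosine kinases recruit adaptors and exchange factors that load GTP, and GAPs speed its hydrolysis. Active Ras turns on RAF kinases, which phosphorylate MEK and through it ERK, and ERK in turn controls transcription through ETS factors among others. The series title links Ras to the scaffold protein Iqgap3 and to the division of corpus stem cells.

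Depth was 41536686 to 42674985 reads per library. Markers of corpus cells were abundant: the summed level of 7 parietal cell genes was 11900 and 13000 CPM in vehicle and 1830 and 1470 CPM in HDT, where CPM scales the reads to a common library size with TMM factors. The antral hormone gene Gast was at 0.039 CPM or less in every library. Vehicle replicate 2 stood apart in pancreatic enzyme genes, with Ctrb1 at 46.2 CPM against 0.653 or less in the other 3 libraries, so calls are also given without that library where it alters them. In whole tissue, fewer cells of a type and less RNA per cell cannot be told apart.

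The share of the 41 tested genes that were called was near that of all tested genes. In limma's test, 16 were called (adjusted p under 0.05 over all 18285 genes), which is 39.0%, against 37.7% of all tested genes. Rises numbered 6, where 18.4% of all tested genes rose, and falls numbered 10, where 19.3% fell. Their median log2 fold change was −0.06, beside −0.0015 for all tested genes. The median size of the change, whatever its sign, was 0.18, beside 0.29 for all tested genes, but the levels differed too, with a median of 30.6 CPM for members and 10.8 CPM for all tested genes. Of the 16 called changes 11 were under 0.5. Called changes of at least 2-fold were found in 2 genes, or 4.88%, against 8.57% of all tested genes. These were the exchange factor gene Rasgrp3, which fell, and the ETS factor gene Etv4, which rose. Counts moved with single libraries: rises numbered 3 without vehicle replicate 1, 3 without HDT replicate 2 and 4 when vehicle replicate 2 was left out, and falls numbered 6 without vehicle replicate 1. CPM values of the groups did not overlap for 29 of the 41, or 70.7%, against 70.8% of all tested genes. Both HDT mice were above both vehicle mice for 13 of them, where this held for 35.3% of all tested genes, and below for 16, where this held for 35.5%.

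Which sign a small change has is set by the scaling. Without TMM factors, the deposited values put the median of all tested genes at 0.52. There 33 members were higher and 2 lower, where 62.5% of all tested genes were higher and 5.49% lower. Of the 10 members called lower with TMM, 7 had a positive log2 fold change there, and 4 of those were called higher. All changes below are on the TMM scale, relative to the bulk of the transcriptome, and they hold in direction at the deposited scaling for all 6 rises and for the falls of Rasgrp3, Phlda1 and Etv1.

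**Figure D1:**
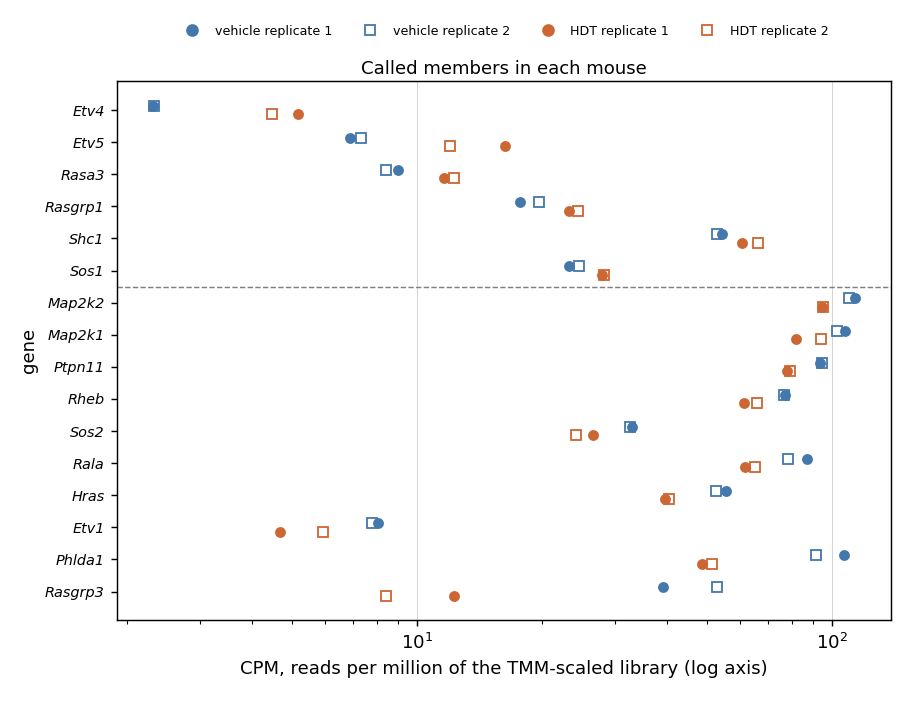
CPM (log axis) of the 16 called members in each of the 4 mice, vehicle in blue and HDT in orange, with circles for replicate 1 and open squares for replicate 2. The 6 genes above the dashed line were higher in HDT and the 10 below it lower. The groups are separate for all 16, by the widest gap for Rasgrp3.

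**Figure D2:**
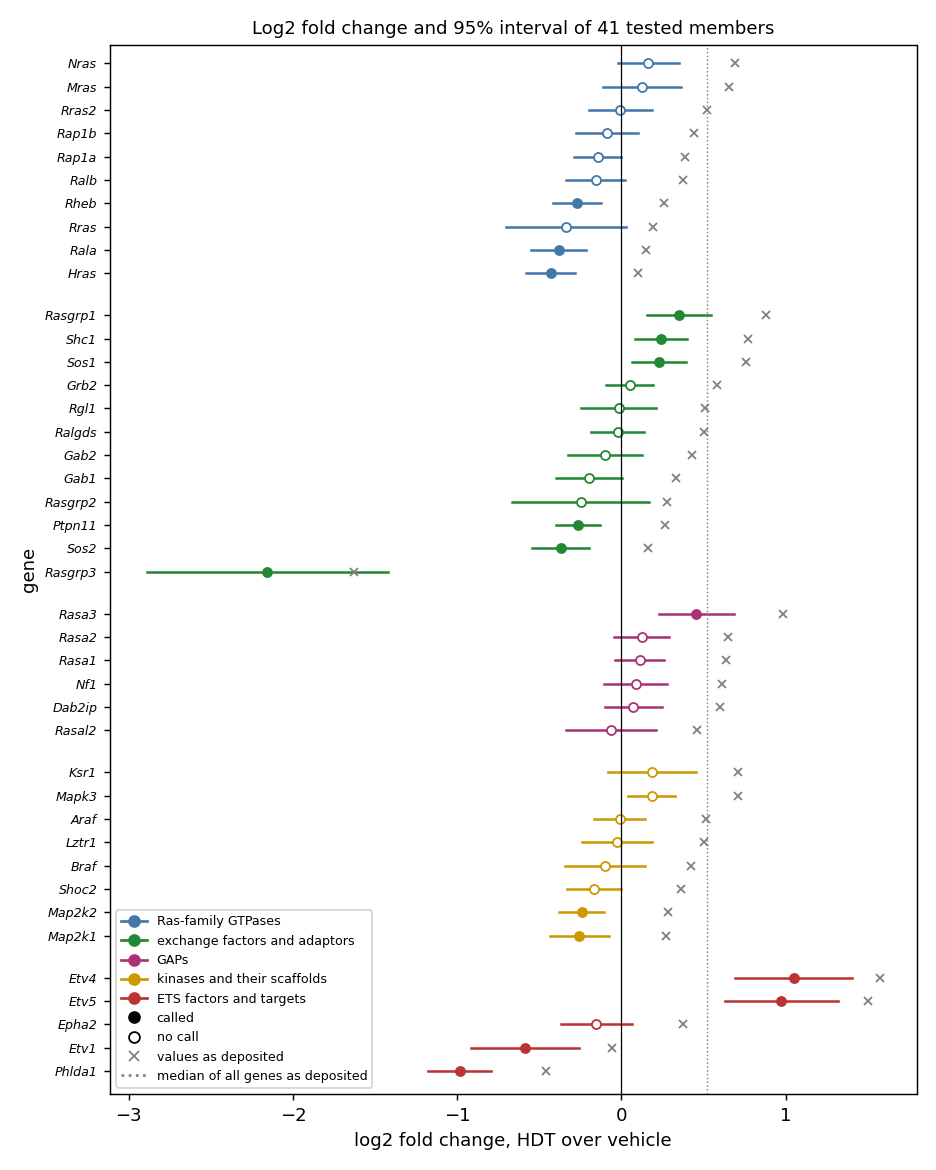
Log2 fold change of HDT over vehicle for the 41 tested members by role, with 95% intervals from limma; filled circles were called. Grey crosses are the same changes at the deposited scaling and the dotted line is the median of all genes there, 0.52. Most members lie within 0.5 of 0, and the crosses of 7 called falls lie above 0.

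The promoters of the members were searched for the core CCGGAA that many ETS factors bind, because ETS factors are the transcriptional end of this pathway. Of the ETS factors in the set, Etv4 and Etv5 rose and Etv1 fell. The sequences are those of RefSeq on GRCm38.p6, and 36 of the 42 members matched an entry. The window was 250 bases before each annotated start, and both strands were searched. Each line gives 26 bases around a match in a called gene, read 5′ to 3′ on the strand that holds CCGGAA, with the core in capitals.
Hras, chr7:141194151-141194176, plus strand: gaaggcagtgCCGGAActtgggtcct
Rala, chr13:17944221-17944246, minus strand: ggcccgcgccCCGGAAgtgatctgcg
Rheb, chr5:24842566-24842591, plus strand: cccaaagcccCCGGAAaagtcacgac
Rheb, chr5:24842495-24842520, plus strand: gcctcccagcCCGGAAcgcgcggggg
Rheb, chr5:24842403-24842428, plus strand: gctcaaccgcCCGGAAccgaacgcgc
Ptpn11, chr5:121191485-121191510, minus strand: gccccgcaaaCCGGAAgcagatagtg
Map2k1, chr9:64253790-64253815, minus strand: cagagggcgcCCGGAAagcctccctt
Rasgrp3, chr17:75435818-75435843, plus strand: ccactggaggCCGGAAaactaagtag
Sos1, chr17:80480499-80480524, minus strand: ccgcgggcagCCGGAAaacccggagc

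The core begins at base −19 from the start site in Rala, −57, −149 and −220 in Rheb, −61 in Sos1, −77 in Rasgrp3, −103 in Ptpn11, −162 in Hras and −200 in Map2k1. It was found for 6 of 9 members that fell, 1 of 5 that rose and 6 of 22 without a call, counting genes with a promoter entry. Among all tested genes the shares were 21.3% of those that fell, 24.5% of those that rose and 22.7% of those without a call. Of the members that fell and held the core, Hras, Rala, Rheb, Ptpn11 and Map2k1 had a positive log2 fold change at the deposited scaling. Only Rasgrp3 was lower at both scalings. The calls of Rheb, Ptpn11 and Map2k1 were also lost in fits that left out a single library. Counted over windows, 13 of the 52 of the members held the core, against 19.3% of those of tested genes and 12.0% of all 32851 windows of this length. Base composition differed between these sets, with a median GC content of 64.2%, 59.2% and 52.4% in the same order. The AP-1 site TGANTCA was in 3.85% of the members' windows, 4.88% of those of tested genes and 6.75% of all. The E2F site TTTCCCGC was in 1.92%, 1.43% and 0.895% in the same order, and the serum response element in 0 of 52, 1.18% and 1.47%. No matches of different motifs overlapped in these windows. A match is a stretch of letters and not evidence of binding, and its part in the changes was not tested.

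Hras and Nras are shown in full because they are close relatives of which one was called lower and the other had no call. In Hras (chr7:141194005-141194254, minus strand) the capitals mark the core, which reads TTCCGG here because it lies on the other strand.
Hras: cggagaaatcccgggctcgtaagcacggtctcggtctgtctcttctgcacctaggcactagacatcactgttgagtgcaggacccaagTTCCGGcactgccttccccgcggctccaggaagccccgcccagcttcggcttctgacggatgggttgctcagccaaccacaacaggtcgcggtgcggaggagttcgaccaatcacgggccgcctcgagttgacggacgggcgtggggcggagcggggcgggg
In Nras (chr3:103058035-103058284, plus strand) no motif of the 4 was matched, so nothing is in capitals. The GC content of the window is 65.6% for Hras and 48.4% for Nras.
Nras: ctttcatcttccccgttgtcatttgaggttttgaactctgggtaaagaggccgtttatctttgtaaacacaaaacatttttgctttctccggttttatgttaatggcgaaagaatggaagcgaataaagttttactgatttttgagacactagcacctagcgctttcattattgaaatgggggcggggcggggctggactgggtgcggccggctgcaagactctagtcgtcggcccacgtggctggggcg

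Among the GTPases, 3 of 10 fell, where 19.3% of all tested genes fell, and 7 had no call, and the median log2 fold change was −0.15 (0.38 without TMM factors). No GTPase was called higher by limma, edgeR or DESeq2, where 18.4% of all tested genes were called higher by limma. None had an unadjusted p under 0.05 for a rise, whereas 4 did for a fall. At the deposited scaling 7 of the 10 were called higher, among them Nras at a log2 fold change of 0.69. There 62.5% of all tested genes were called higher. Hras (chromosome 7, 141189105 to 141194005, GRCm38), one of the classical Ras proteins, was at 55.4 and 52.5 CPM in the vehicle mice and at 39.5 and 40.5 CPM in the HDT mice. Both HDT values lay below both vehicle values, a log2 fold change of −0.43 (SE 0.064, limma adjusted p = 0.0014). Rala (chromosome 13, 17880571 to 17944239), which acts on the exocyst in vesicle delivery, went from 86.7 and 78.4 CPM to 61.5 and 65.1 CPM, again without overlap (log2 fold change −0.38, limma adjusted p = 0.0044). Rheb (chromosome 5, 24802823 to 24842624), the activator of the growth kinase complex mTORC1, went from 76.8 and 76.5 CPM to 61.3 and 65.9 CPM (log2 fold change −0.27, limma adjusted p = 0.012). At the deposited scaling the log2 fold changes of Hras, Rala and Rheb were 0.10, 0.15 and 0.26. Leaving out vehicle replicate 1 ended the Rheb call (limma adjusted p = 0.057).

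Nras, the other classical Ras gene in the set, was at 46.6 and 46.5 CPM in vehicle and 48.5 and 56.1 CPM in HDT. Its log2 fold change was 0.16, with a 95% interval of −0.02 to 0.35 (limma adjusted p = 0.15), and without HDT replicate 1 it was called higher at 0.27 (limma adjusted p = 0.025). The balance of the pair differed between groups: Hras made up 62.9% and 61.7% of their combined length-scaled level in vehicle and 53.8% and 50.8% in HDT. These shares do not depend on the scaling of the libraries. With 2 mice against 2 an exact two-sided permutation test cannot go below p = 0.333, so the shares are given without one.

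The other 6 GTPases had no call. Rap1a and Rap1b, which regulate integrin adhesion, had log2 fold changes of −0.14 and −0.09. Rras2 was at −0.01 with overlapping groups, and the Ral gene Ralb was at −0.16. Mras, which forms a phosphatase complex with Shoc2 that activates RAF, was the least abundant GTPase at 7.67 and 7.78 CPM in vehicle and 8.30 and 8.56 CPM in HDT. Rras, an integrin regulator, was the most variable, at 28.6 and 22.2 CPM in vehicle and 18.0 and 22.1 CPM in HDT. Its log2 fold change of −0.34 had an interval of −0.70 to 0.03 (limma adjusted p = 0.13). Without vehicle replicate 2 it was −0.53 and called (limma adjusted p = 0.00678).

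Levels of different genes are compared per length, as RPKM, the CPM divided by the kilobases of annotated exon. In vehicle, Rap1a (49.7 RPKM) and Rap1b (46.0) led the GTPases, followed by Rala (28.5), Rras (22.7), Ralb (18.5), Hras (14.5), Rheb (9.93), Rras2 (9.02), Nras (8.74) and Mras (1.51). The ranges of neighbours in that order did not overlap between the 2 mice, though the lowest Rras2 value, 8.749 RPKM, was next to the highest Nras value, 8.743 RPKM. In HDT, Nras (9.81) stood above Rras2 (8.99) and Rheb (8.24), and the ranges of these neighbours overlapped, as did those of Rap1a and Rap1b and of Rras and Ralb.

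**Figure D3:**
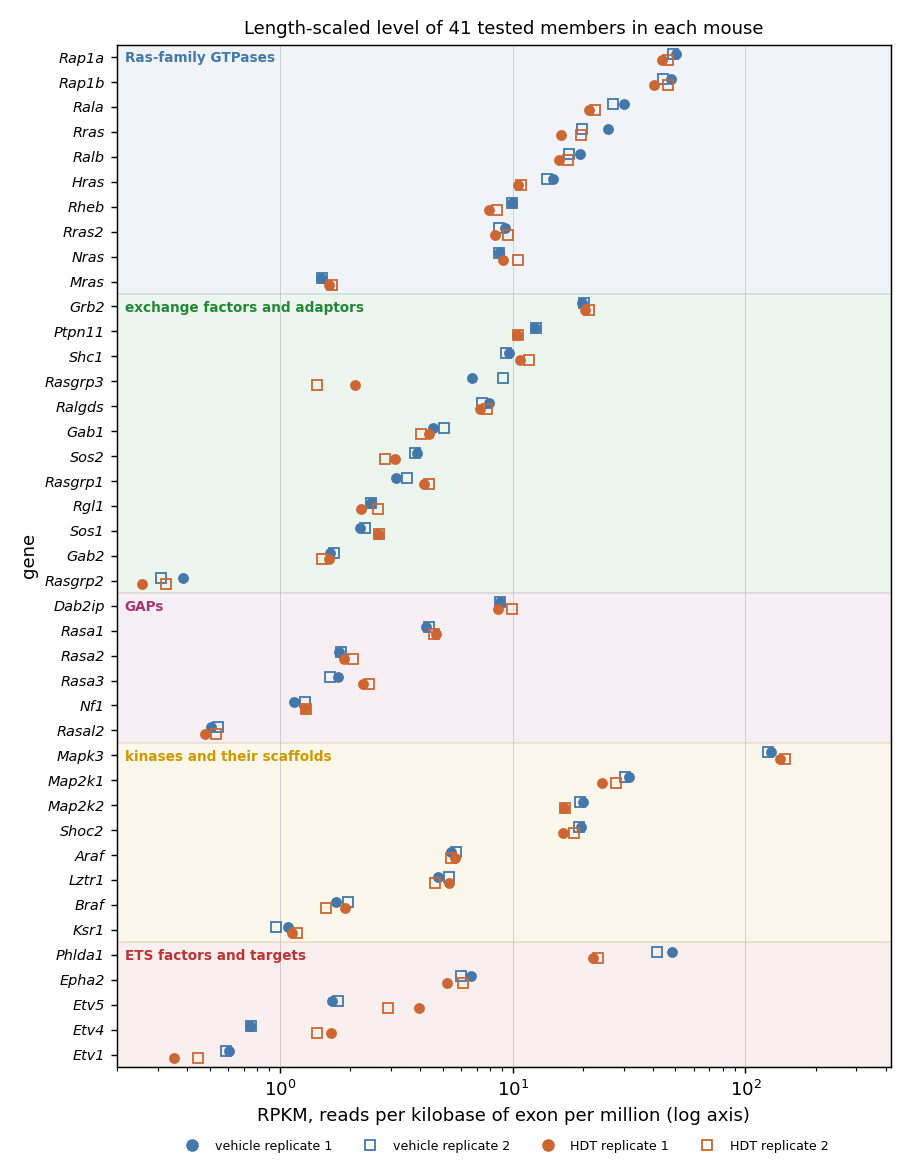
RPKM (log axis) of the 41 tested members in each mouse, ordered by role and by the vehicle mean, with the symbols of the plot of called members. Mapk3 is the most abundant member per length, and the 2 groups lie close together for most genes. Rasgrp3, Phlda1, Etv4, Etv5 and Etv1 are set apart.

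The exchange factors and adaptors held the widest change of the whole set and opposite changes of close relatives. Of 12 tested, 3 rose, 3 fell and 6 had no call, where 18.4% of all tested genes rose and 19.3% fell, and the median log2 fold change was −0.06 (0.47 without TMM factors). Rasgrp3 (chromosome 17, 75435896 to 75529054), a diacylglycerol-responsive exchange factor for Ras and Rap known from B cells and endothelium, was at 39.0 and 52.9 CPM in vehicle and at 12.3 and 8.42 CPM in HDT. Both HDT mice lay far below both vehicle mice. The log2 fold change was −2.16 (SE 0.259, 95% interval −2.89 to −1.42, limma adjusted p = 0.0069), larger in size than 98.4% of all tested genes, and it was called in all 16 alternatives.

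Rasgrp1 (chromosome 2, 117279993 to 117343001), its relative known from T cells and mast cells, moved the other way. It was at 17.7 and 19.7 CPM in vehicle and 23.2 and 24.4 CPM in HDT, a log2 fold change of 0.35 (limma adjusted p = 0.013). That call was lost without vehicle replicate 1 (limma adjusted p = 0.080) and without HDT replicate 2 (limma adjusted p = 0.05022). Rasgrp2, the form of platelets, was low at 4.74 and 3.80 CPM in vehicle and 3.17 and 4.02 CPM in HDT, with overlapping groups. Rasgrp3 made up 65.4% and 70.3% of the length-scaled level of the 3 genes in vehicle and 32.3% and 23.5% in HDT, while Rasgrp1 went from 30.9% and 27.3% to 63.7% and 71.2%. Rasgrp1 thus became the most abundant of the 3 in both HDT mice. Their summed level was 10.2 and 12.9 RPKM in vehicle and 6.51 and 6.13 RPKM in HDT.

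Markers of cells known for these 3 genes gave the following values. Of 6 B and plasma cell markers 3 were tested and none was called, at an unadjusted p under 0.05 either. Their summed level was 19.9 and 8.04 CPM in vehicle and 5.87 and 10.7 CPM in HDT, nearly all of it Jchain. Of 6 endothelial markers 3 fell and none rose, with sums of 189 and 222 CPM in vehicle and 196 and 178 CPM in HDT; Kdr fell by 0.64 on the log2 scale, and Pecam1 and Cdh5 had log2 fold changes of 0.26 and 0.32. Of 8 T cell markers 3 were tested: Cd4 rose by 1.17 on the log2 scale, Trac fell by 1.03, and Lck had a log2 fold change of 0.23 without a call. Cd3e, too low to test, was at 0.227 CPM or less in every library. The 8 macrophage markers summed to 185 and 198 CPM in vehicle and 415 and 343 CPM in HDT, 6 mast cell markers to 89.9 and 38.5 CPM and to 27.8 and 39.1 CPM, and 6 platelet markers to 18.6 and 13.7 CPM and to 14.4 and 18.1 CPM. Markers of several epithelial cell types fell alongside Rasgrp3: 6 of 7 parietal genes (median log2 fold change −2.87), 3 of 5 chief cell genes (−2.17), 2 of 2 neck cell genes (−1.63) and 5 of 5 pit cell genes (−0.79). Of 6 gastric endocrine genes, 1 rose, 2 fell and 3 had no call (median log2 fold change 0.18). Chief cell markers summed to 142000 and 174000 CPM in vehicle and 40300 and 29600 CPM in HDT. The part of these cells in the Rasgrp changes was not tested.

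**Figure D4:**
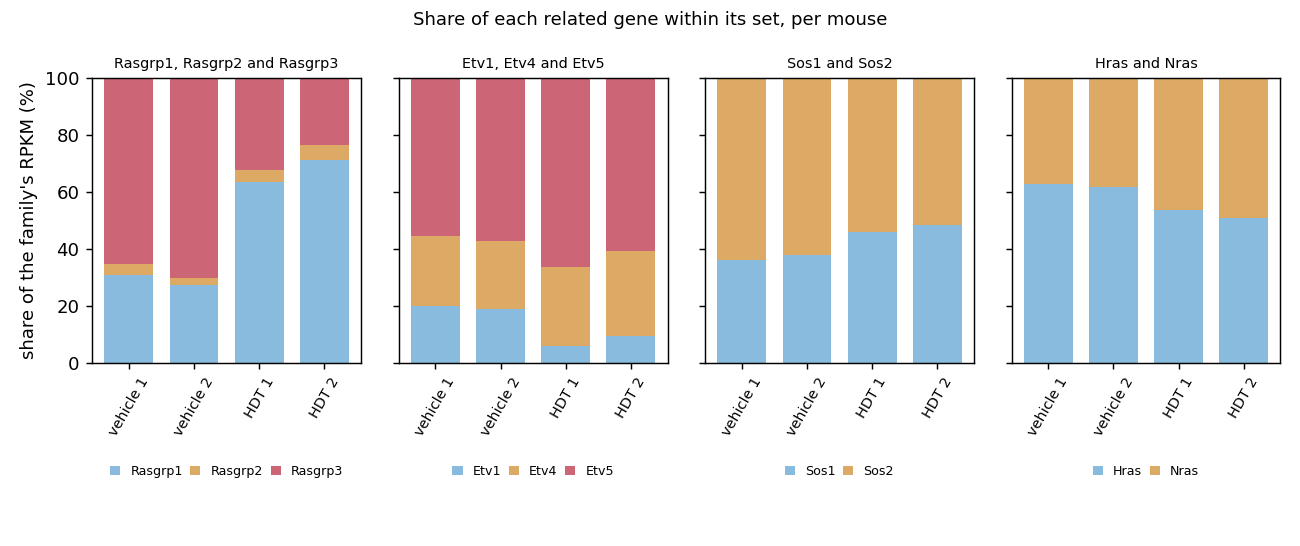
Share of each gene in the summed RPKM of its set, per mouse, for the Rasgrp, Etv and Sos genes and for Hras with Nras. Bars run from 0 to 100%. Rasgrp3 holds over 65% in both vehicle mice and under 33% in both HDT mice, and the Sos1 and Nras shares are larger in both HDT mice. Other sets of relatives are not drawn. The shares of vehicle and HDT mice overlap for Map2k1 with Map2k2, Rap1a with Rap1b and Araf with Braf. They are apart for Rala with Ralb, Gab1 with Gab2 and the set of Rasa1, Rasa2, Rasa3 and Nf1. Map2k1 holds 61.2% and 60.9% in vehicle and 59.2% and 62.3% in HDT. For Rala the shares are 60.5% and 60.8% in vehicle and 57.2% and 56.5% in HDT.

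The SOS genes, which encode the exchange factors that receptors recruit, also moved apart. Sos1 (chromosome 17, 80393751 to 80480453) was at 23.3 and 24.5 CPM in vehicle and 27.9 and 28.2 CPM in HDT, a log2 fold change of 0.23 (limma adjusted p = 0.035). Sos2 (chromosome 12, 69583762 to 69681852) was at 32.9 and 32.5 CPM in vehicle and 26.6 and 24.2 CPM in HDT, a log2 fold change of −0.37 (limma adjusted p = 0.0060), against 0.16 without TMM factors. Sos1 held 36.2% and 37.8% of their combined length-scaled level in vehicle and 45.8% and 48.4% in HDT. The Sos1 call was lost when any 1 library was left out (limma adjusted p = 0.21 and 0.067 without vehicle replicates 1 and 2, 0.077 and 0.078 without HDT replicates 1 and 2) and in DESeq2 (adjusted p = 0.11).

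Adaptors changed little. Shc1 (chromosome 3, 89418443 to 89430027), which links phosphorylated receptors to Grb2, was at 54.3 and 52.7 CPM in vehicle and 60.6 and 66.2 CPM in HDT, a log2 fold change of 0.24 (limma adjusted p = 0.025). Ptpn11 (chromosome 5, 121130533 to 121191397), which encodes the phosphatase SHP2, was at 93.6 and 94.6 CPM in vehicle and 77.8 and 79.1 CPM in HDT, a log2 fold change of −0.26 (limma adjusted p = 0.0092), against 0.27 without TMM factors. The Shc1 call was lost without vehicle replicate 1, vehicle replicate 2 or HDT replicate 2 (limma adjusted p = 0.072, 0.13 and 0.077), and that of Ptpn11 without vehicle replicate 1 or vehicle replicate 2 (limma adjusted p = 0.053 and 0.064). Grb2, the adaptor that carries SOS to receptors, was the most abundant gene of this class per length, at 20.1 RPKM in vehicle, with a log2 fold change of 0.05 and an interval of −0.09 to 0.19. The docking proteins Gab1 and Gab2 had log2 fold changes of −0.20 and −0.10. Ralgds and Rgl1, exchange factors through which Ras activates Ral, were at −0.02 each with overlapping groups.

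Of the GAPs, which switch Ras off, 1 of 6 tested genes rose and none fell, so 16.7% were called against 37.7% of all tested genes. The count of falls was also 0 in edgeR and DESeq2, and at an unadjusted p under 0.05. The median log2 fold change was 0.10, or 0.63 at the deposited scaling. Rasa3 (chromosome 8, 13566948 to 13677603), a GAP for Ras and Rap known from platelets and blood vessels, was at 9.004 and 8.39 CPM in vehicle and 11.6 and 12.3 CPM in HDT. Its log2 fold change was 0.46, with a standard error of 0.099 (limma adjusted p = 0.0084), and it was called in all 16 alternatives. Rasa1 and Rasa2 had HDT values above both vehicle values but small changes, of 0.11 and 0.12, without a call. Nf1, which encodes neurofibromin, was at 18.2 and 20.2 CPM in vehicle and 20.2 and 20.5 CPM in HDT, and Dab2ip, the most abundant GAP per length, was at 73.9 and 73.6 CPM and at 72.6 and 82.9 CPM. Rasal2 had a log2 fold change of −0.06. Rasal1 had 3 and 5 reads in the vehicle libraries and 7 and 4 in the HDT libraries, too few to test.

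Among the kinases and their scaffolds, 2 of 8 fell, where 19.3% of all tested genes fell, and 6 had no call, and the median log2 fold change was −0.06 (0.46 without TMM factors). The genes of both MEK kinases fell together. Map2k1 (chromosome 9, 64185770 to 64253631) was at 107 and 102 CPM in vehicle and 81.95 and 93.9 CPM in HDT (log2 fold change −0.26, limma adjusted p = 0.033). Map2k2 (chromosome 10, 81105915 to 81133975) was at 114 and 110.01 CPM in vehicle and 94.3 and 94.9 CPM in HDT (log2 fold change −0.24, limma adjusted p = 0.014). At the deposited scaling their changes were 0.27 and 0.29, and both were called higher. The Map2k1 call was lost without vehicle replicate 1, vehicle replicate 2 or HDT replicate 1 (limma adjusted p = 0.14, 0.054 and 0.13), and that of Map2k2 without vehicle replicate 1 or vehicle replicate 2 (limma adjusted p = 0.12 and 0.058).

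Mapk3 (chromosome 7, 126759601 to 126765819), which encodes the ERK kinase ERK1, lay next to the threshold. It was at 289.8 and 283 CPM in vehicle and 317 and 334 CPM in HDT, a log2 fold change of 0.18 with an interval of 0.04 to 0.33 (limma adjusted p = 0.0501). It was called higher with DESeq2 size factors (limma adjusted p = 0.041), with upper-quartile scaling (0.025) and without HDT replicate 1 (0.025). No other member of this class had an unadjusted p under 0.05 for a rise, and neither edgeR nor DESeq2 called a rise in it. Mapk3 was the most abundant of all 42 genes per length, at 127 ± 2.12 RPKM in vehicle and 144 ± 5.23 RPKM in HDT (SD, n = 2). Its length-scaled level was 4.06 and 4.15 times that of Map2k1 in the vehicle mice and 5.81 and 5.34 times in the HDT mice. Library scaling does not alter this ratio. Mapk3 itself had no call, and how far ratios of gene pairs in general differ between the groups was not computed.

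The RAF genes did not change detectably. Araf had a log2 fold change of −0.01 with an interval of −0.17 to 0.14, and Braf one of −0.10 with an interval of −0.35 to 0.14, each with overlapping groups. Araf was the more abundant of the pair per length, at 5.56 RPKM against 1.86 RPKM in vehicle. The RAF scaffold Ksr1 was at 7.67 and 6.79 CPM in vehicle and 7.99 and 8.44 CPM in HDT, with no call. Shoc2, the partner of Mras, was at 110.04 and 107 CPM in vehicle and 91.4 and 102 CPM in HDT. Its log2 fold change of −0.17 was called as a fall only without HDT replicate 2, at −0.23. At the deposited scaling Shoc2 was at 0.36 and called higher. Lztr1, which directs the ubiquitination of Ras proteins, was at −0.03 with overlapping groups.

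At the transcriptional end, 4 of 5 genes were called, 2 in each direction, where 37.7% of all tested genes were called. Etv4 (chromosome 11, 101769742 to 101785371) and Etv5 (chromosome 16, 22381309 to 22439719), ETS factors of the PEA3 family induced by growth factor signalling, both rose. Etv4 was at 2.30 and 2.32 CPM in vehicle and 5.15 and 4.48 CPM in HDT, a log2 fold change of 1.05 (SE 0.154, limma adjusted p = 0.0012). Etv5 was at 6.87 and 7.32 CPM in vehicle and 16.2 and 12.0 CPM in HDT, a log2 fold change of 0.97 (SE 0.148, limma adjusted p = 0.0017). The groups were separate for both genes, and both were called in all 16 alternatives. Etv1 (chromosome 12, 38779380 to 38870484), the other PEA3 factor, known as a regulator of the interstitial cells of Cajal, fell from 8.04 and 7.78 CPM to 4.67 and 5.92 CPM (log2 fold change −0.59, limma adjusted p = 0.013). Its call was lost without HDT replicate 1 (limma adjusted p = 0.062), and at the deposited scaling its change was −0.06 without a call. Among the 3, the share of Etv1 in the length-scaled level was 20.0% and 18.8% in vehicle and 5.88% and 9.27% in HDT.

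Of the 2 markers of interstitial cells of Cajal, Kit fell from 57.7 and 61.5 CPM to 10.9 and 13.9 CPM, and Ano1 was at 37.8 and 40.2 CPM in vehicle and 40.8 and 37.96 CPM in HDT. Kit is also carried by mast cells, whose 6 markers had no call. All 6 markers of cycling cells rose, with sums of 103 and 122 CPM in vehicle and 505 and 413 CPM in HDT. Of 6 fibroblast markers 5 rose, with sums of 1030 and 1010 CPM in vehicle and 1880 and 2120 CPM in HDT. The part of these cells in the changes of the ETS genes was not tested.

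Phlda1 (chromosome 10, 111506286 to 111508645), a gene that ERK induces, fell while Etv4 and Etv5 rose. It was at 107 and 91.6 CPM in vehicle and 48.6 and 51.5 CPM in HDT, a log2 fold change of −0.99 (SE 0.084, limma adjusted p = 9.0e-05), and it was called in all 16 alternatives. The long noncoding gene Gm28592 lies on the opposite strand and shares 33.0% of the exon bases of Phlda1. It had 0.588, 0.583, 0.588 and 0.582 reads for each read of Phlda1 in vehicle replicates 1 and 2 and HDT replicates 1 and 2, and the strand setting of the counting is not given in the sources used here. Without strand, reads in the shared bases cannot be assigned to either gene. Summed, the reads of the pair went from 170 and 145 CPM in vehicle to 77.2 and 81.4 CPM in HDT. Epha2, a receptor tyrosine kinase also induced through ERK, was at 30.8 and 27.9 CPM in vehicle and 24.5 and 28.5 CPM in HDT, with overlapping groups and a log2 fold change of −0.15.

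The rest of the pathway was counted in lists beside the members. Of 27 further regulators of Ras, Rap and Ral, 1 rose, 9 fell and 17 had no call, with a median of −0.08, where 18.4% of all tested genes rose and 19.3% fell. Among those with a group mean of at least 5 CPM, the widest were falls of Rap1gap2, a GAP for Rap1, from 181 and 192 CPM to 68.6 and 62.6 CPM, and of Rapgef4, a cyclic AMP-responsive exchange factor for Rap1, from 9.26 and 10.2 CPM to 5.25 and 3.88 CPM. Of 15 genes for the lipid modification and trafficking of Ras, none rose and 4 fell, among them Arl2 (log2 fold change −0.43) and Pde6d (−0.32), whose products pass prenylated Ras between membranes. The count of rises was also 0 in edgeR, in DESeq2 and at an unadjusted p under 0.05. Of 17 effectors and exocyst partners, 3 rose and 1 fell, with Tiam1 at 0.74 and Rin3 at 0.69. Left-out libraries altered small counts: without HDT replicate 1 there were 2 falls among the effectors and 2 among the lipid modification genes, without vehicle replicate 1 also 2 of the latter, and without HDT replicate 2 there were 2 rises among the regulators. Without TMM factors these 3 lists, in the order regulators, effectors and lipid modification, had 20, 13 and 13 genes called higher and 2, 0 and 0 lower.

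In 4 further lists, 27.3% to 44.4% of tested genes were called, against 37.7% of all tested genes. Of 31 other MAP kinase cascade genes, 4 rose and 7 fell, with Mknk1 at −0.67 and Rps6ka2 at −0.64. Of 36 tested receptor tyrosine kinases, 6 rose and 6 fell; Kit fell by 2.27 on the log2 scale, and the ephrin receptor gene Ephb2 rose by 1.13. Of 27 other ERK and ETS response genes, 8 rose and 4 fell, with the secreted phosphoprotein gene Spp1 at 1.496 and the ERK phosphatase gene Dusp6 at −1.61. Of 22 tested other Ras-like GTPases 2 rose and 4 fell, the widest being Rasd1, a glucocorticoid-inducible GTPase, at −2.40, and Diras2 at −1.79. Iqgap3, the scaffold of the series title, was at 5.57 and 7.06 CPM in vehicle and 31.1 and 24.2 CPM in HDT, and Iqgap1 and Iqgap2 had no call. Among these lists, the cascade genes had 2 rises without vehicle replicate 1 or vehicle replicate 2 and 3 falls without the latter, the response genes had 5 rises without HDT replicate 2, and the Ras-like genes had 1 rise without vehicle replicate 2. Without TMM factors, 25 cascade genes, 26 receptors, 21 response genes, 9 Ras-like genes and 3 scaffolds were called higher, and 0, 1, 1, 2 and 0 lower.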

How the data were processed

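RNA-seq of the stomach corpus of 4 mice was analysed, 2 labelled vehicle and 2 labelled HDT. The submitters' processing notes name the builds GRCm38 and mm10 and the tools STAR (2.7.1a), Subread (2.0.0), featureCounts and edgeR, without order, annotation, strand setting or normalization. The values the authors deposited are a signal: normalized gene counts, each a whole number of reads times a factor constant within a library. Dividing by that factor (1.1128 to 1.1381) gave whole reads for 100% of values above 0, within 0.011, and edgeR's quasi-likelihood test on these reads called 3358 genes higher and 3511 lower, with 16 members. The members and lists were chosen with earlier results of these data known.

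Genes were kept by filterByExpr on recovered reads. The deposited values were then scaled by TMM (factors 0.8476 and 0.818 in vehicle, 1.219 and 1.183 in HDT) and transformed as log2(value + 1), which understates the change of low genes. HDT was compared with vehicle in limma 3.58.1 (R 4.3.3; trend, robust, group as only term), two-sided, with Benjamini-Hochberg adjustment over 18285 genes at 0.05. The spread is that between 2 mice, moderated over genes with a median of 5.87 prior degrees of freedom. Alternatives numbered 16, among them edgeR 4.0.16 and DESeq2 1.42.0 on recovered reads. The fit was also run on simulated counts, and the outcome of that run is not used here. All members are named, and from each other list the 2 called genes of largest change with at least 5 CPM. Gene positions and exon lengths are from GENCODE M21 on GRCm38. Copies were sought with minimap2 2.31 (90% identity over 300 bases): Rap1a, Grb2 and Etv1 have processed pseudogenes with at most 25 reads in any library. One of the other lists and 1 marker gene are not reported here.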

Additional observations from a re-analysis of the deposited data

How the results depend on the processing

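Of 16 alternatives, 15 reversed no sign of a called member, and the exception was the deposited scaling. Rasgrp3, Rasa3, Etv4, Etv5 and Phlda1 were called in the same direction in all 16. With edgeR the same 16 members were called as in limma, and with DESeq2 15 of them. At the deposited scaling 11419 genes were higher and 1003 lower. Members then had 33 rises and 2 falls, the GTPases 7 and 0, the exchange factors and adaptors 9 and 1, the kinases 8 and 0, the GAPs 6 rises and the ETS group 1 fall. Log2 fold changes with the opposite sign there were 0.10 for Hras, 0.15 for Rala, 0.26 for Rheb, 0.16 for Sos2, 0.27 for Ptpn11, 0.27 for Map2k1 and 0.29 for Map2k2, and, among members without a call that were called there, 0.52 for Rras2, 0.38 for Rap1a, 0.44 for Rap1b, 0.37 for Ralb, 0.33 for Gab1, 0.43 for Gab2, 0.505 for Ralgds, 0.51 for Rgl1, 0.46 for Rasal2, 0.43 for Braf, 0.52 for Araf, 0.36 for Shoc2, 0.4997 for Lztr1 and 0.38 for Epha2. Rras (0.19) and Rasgrp2 (0.28) also turned sign, without a call in either scaling. That alternative leaves out the TMM factors alone. Kinase rises numbered 1 (Mapk3) with DESeq2 size factors, upper-quartile scaling, no low-count filter or a filter of 1 CPM in 2 libraries, and upper-quartile scaling left 1 kinase fall, Map2k2; the cause was not tested.

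Leaving out 1 library gave 2543 to 2749 rises and 2773 to 3041 falls over all tested genes, and 3 to 7 rises and 6 to 11 falls among members. By role the counts were 0 to 1 rises and 2 to 4 falls for GTPases, 0 to 2 and 2 to 3 for exchange factors and adaptors, 1 to 1 and 0 to 0 for GAPs, 0 to 1 and 0 to 3 for kinases, and 2 to 2 and 1 to 2 for the ETS group. The lone library left in a group was assumed to vary like the other group.

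Deviations of same-numbered libraries from their group means had r = −0.142 across 18285 genes. With 2 libraries per group and genes that vary together, this value cannot settle whether replicate numbers pair the samples. With the replicate block 11 members were called, all among the 16, with 1 rise of an exchange factor and 0 kinase falls; Rheb, Sos1, Shc1, Map2k1 and Map2k2 lost their calls there. Each group has 2 mice, and the shares of counting error and of differences between mice in the spread were not tested; 40 of 42 members had at least 100 reads in every library, the exceptions being Rasal1 and Etv4.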
